A study of Homo sapiens with 20 samples.

Results

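The genes described here carry symbols of Rab GTPases, their regulators and effectors, and the coats, tethers, adaptors and fusion proteins of membrane traffic. They were taken from the 7 deposited tables of splicing events by a pattern on the gene symbol, which uses no measured value. The pattern found 169 of the 7112 genes in the tables, 510 of the 19275 distinct splicing events and 699 of the 26803 table rows. It matches names and not functions, so it also takes in VPS72, a chromatin factor, and TBC1D3I, which has near-identical copies in the genome. It further takes in the antisense RNA genes STX18-AS1 and VPS9D1-AS1 and a fused pseudogene.

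All samples were HEK293T, an established human embryonic kidney line, and polyadenylated RNA was sequenced. MLN8237, an Aurora-A kinase inhibitor, was given for 24 hours and compared with the solvent DMSO. In the other samples siRNAs had been transfected 48 hours before lysis. Depletions of SRSF1, SRSF2 and SRSF7, which are serine/arginine-rich splicing factors, and of SF3B5, a subunit of the U2 snRNP, were compared with a non-targeting group called siNT1 here. Depletions of SRSF3, another such factor, and of RBM39, an RNA-binding splicing factor, were compared with a second non-targeting group, siNT2. Each of the 10 groups had 2 samples. The sample titles place DMSO and MLN8237 in set 1, siNT1 and its depletions in set 2, and siNT2 with the SRSF3 and RBM39 depletions in set 3, so each treatment was compared within its set, while a value set across siNT1 and siNT2 also crosses sets.

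Rab GTPases mark membranes in their GTP-bound form and recruit effectors that move, tether and fuse vesicles. DENN domain proteins and TRAPP complexes load Rab proteins with GTP, and TBC domain proteins switch them off. COPII coats carry cargo out of the endoplasmic reticulum, clathrin adaptors select cargo at the Golgi, endosomes and plasma membrane, COG, exocyst and VPS tethers catch vesicles, and SNAREs fuse them.

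Each table gives, for every listed event, the percent spliced in (PSI), the percentage of transcripts that include the segment, as the authors' mean over the 2 samples of each group. Values of single samples were not analysed here, so no PSI below has an SD, no event was tested, and a higher or lower PSI is a description of 2 group means. The smallest absolute change listed was 15 percentage points. An event that a table lacks is called not listed, which does not say that its PSI was the same. Read depth behind an event is unknown, and expression of the depleted genes was not analysed here. Exons near full inclusion can only be listed as lower, and all alternative splice sites of all tables were listed as higher, so that their direction carries no information.

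The exons on which the description turns are shown first, 5′ to 3′ as transcribed, from GENCODE 29 transcripts on GRCh38. The tables hold no coordinates, so an exon was placed only where its gene has a single annotated exon of the listed length, a match made here and not by the authors. Capitals mark GGA, the core of many sites bound by SRSF1, searched on the transcribed strand only. A match is a description and not a bound site. The first 5 were listed as higher after some depletions and lower after others.
SNX14 exon of 27 bases: aggtagcctaagtttGGAtgattttcg
RAB11FIP3 exon of 135 bases: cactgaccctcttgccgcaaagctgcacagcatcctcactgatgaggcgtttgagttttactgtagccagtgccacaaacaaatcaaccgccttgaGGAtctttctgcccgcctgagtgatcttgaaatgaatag
EXOC1 exon of 45 bases: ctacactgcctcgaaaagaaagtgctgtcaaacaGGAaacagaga
AP1G1 exon of 9 bases: aatgaaaag
EXOC7 exon of 93 bases: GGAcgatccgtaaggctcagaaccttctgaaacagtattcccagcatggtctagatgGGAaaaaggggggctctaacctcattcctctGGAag
The next were lower in each of the 4 tables that listed them.
SEC31B exon of 146 bases: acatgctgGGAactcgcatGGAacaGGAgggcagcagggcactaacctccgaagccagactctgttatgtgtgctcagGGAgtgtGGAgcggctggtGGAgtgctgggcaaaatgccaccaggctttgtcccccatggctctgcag
TBC1D23 exon of 45 bases: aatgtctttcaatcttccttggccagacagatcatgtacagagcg
A neighbouring pair in SEC16A was among the lowest after SRSF2 depletion.
SEC16A exon of 62 bases: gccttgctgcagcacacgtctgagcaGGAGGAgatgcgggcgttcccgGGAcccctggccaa
SEC16A exon of 139 bases: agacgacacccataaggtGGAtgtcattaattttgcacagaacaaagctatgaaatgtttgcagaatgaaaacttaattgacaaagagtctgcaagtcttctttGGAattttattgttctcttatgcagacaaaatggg
The last is a microexon, an exon of at most 27 bases, that was hardly used in the controls.
EXOC6B exon of 12 bases: gatatctagaga
GGA occurred 6 times in the SEC31B exon, 3 times in the EXOC7 exon and in the shorter SEC16A exon, and not at all in the exons of TBC1D23, AP1G1 and EXOC6B. Among all internal exons of the same length in protein-coding GENCODE transcripts, GGA was present in 97.0% of those with 146 bases, 88.8% of those with 93 bases, 79.6% of those with 62 bases, 71.5% of those with 45 bases, 22.9% of those with 12 bases and 18.3% of those with 9 bases. It was present in 95.6% of those with 139 bases, 96.7% of those with 135 bases and 54.1% of those with 27 bases. These shares count exons with at least 1 GGA, so they do not say whether 3 or 6 copies are unusual.

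These exons lie in coding sequence. The SNX14 exon is at chr6:85538838-85538864 on the minus strand, the RAB11FIP3 exon at chr16:491134-491268 on the plus strand and the EXOC1 exon at chr4:55888888-55888932 on the plus strand. The AP1G1 microexon is at chr16:71767877-71767885 and the EXOC7 exon at chr17:76091143-76091235, both on the minus strand. The SEC31B exon is at chr10:100497135-100497280 on the minus strand and the TBC1D23 exon at chr3:100311833-100311877 on the plus strand. The SEC16A exons are at chr9:136463679-136463740 and chr9:136463463-136463601 on the minus strand, and the EXOC6B microexon is at chr2:72182894-72182905 on the minus strand. Over all trafficking genes, 300 of 414 distinct exons and 55 of 57 distinct introns could be placed in this way. Of the placed exons, 278 were coding, 11 partly coding and 11 untranslated or non-coding.

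SF3B5 depletion listed by far the most trafficking events, 372 in 139 of the 169 genes. SRSF3 depletion listed 84 events in 62 genes, RBM39 depletion 75 in 49, SRSF7 depletion 57 in 40, SRSF2 depletion 56 in 38, SRSF1 depletion 50 in 38 and MLN8237 5 in 4. As shares of the 169 genes, these were 82.2% for SF3B5, 36.7% for SRSF3, 29% for RBM39, 23.7% for SRSF7, 22.5% for SRSF2, 22.5% for SRSF1 and 2.37% for MLN8237. Over all 7112 genes the shares were 71.0% for SF3B5, 39.4% for SRSF3, 36.5% for RBM39, 19.7% for SRSF7, 27.1% for SRSF2, 22.4% for SRSF1 and 2.73% for MLN8237. The order was nearly that of all genes, and the trafficking genes lay above the background for SF3B5 and SRSF7 and below it for RBM39, SRSF2 and SRSF3. The difference from other genes was not tested, and a gene's chance of being listed depends on its exon number and read depth, which were not analysed here.

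Most listed exons had a lower PSI after depletion, that is, were skipped more often. Lower exons were 315 of 321 (98.1%) for SF3B5, 38 of 42 (90.5%) for SRSF2, 52 of 61 (85.2%) for RBM39, 53 of 69 (76.8%) for SRSF3, 33 of 46 (71.7%) for SRSF7 and 27 of 43 (62.8%) for SRSF1. Over all listed exons the same shares were 97.9% for SF3B5, 73.5% for SRSF2, 89.3% for RBM39, 80.9% for SRSF3, 78.5% for SRSF7 and 62.6% for SRSF1. After MLN8237, 1 of 3 trafficking exons was lower, against 48.8% of all listed exons. SRSF2 depletion was the comparison in which the trafficking genes stood farthest from the background, with an exact binomial 95% interval of 77.4% to 97.3% that covers counting of events only.

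Control inclusion differed between the tables. The median control PSI of the trafficking exons ran from 65.1% for SRSF1 to 97.6% for SF3B5 among the depletions. A control PSI of at least 90 was found for 84.7% of those listed after SF3B5 depletion, 55.1% after SRSF3, 52.4% after SRSF2, 47.8% after SRSF7, 41.0% after RBM39 and 34.9% after SRSF1. The corresponding shares over all listed exons were 75.1%, 48.8%, 35.0%, 28.4%, 37.4% and 21.8%, so that the trafficking share was higher in each of these 6 tables. Such exons can be listed only as lower. Among trafficking exons with a control PSI of 20 to 80, which can move both ways, lower exons were 26 of 30 (86.7%) for SF3B5, 15 of 19 (78.9%) for RBM39, 10 of 13 (76.9%) for SRSF2, 9 of 16 (56.2%) for SRSF3, 8 of 16 (50%) for SRSF7 and 7 of 18 (38.9%) for SRSF1. The background in this range was 94.1% for SF3B5, 83.6% for RBM39, 59.7% for SRSF2, 65.6% for SRSF3, 67.3% for SRSF7 and 50.6% for SRSF1. Within this range the SRSF1, SRSF3, SRSF7, SF3B5 and RBM39 shares were below the background, and SRSF2 was above it.

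**Figure D1:**
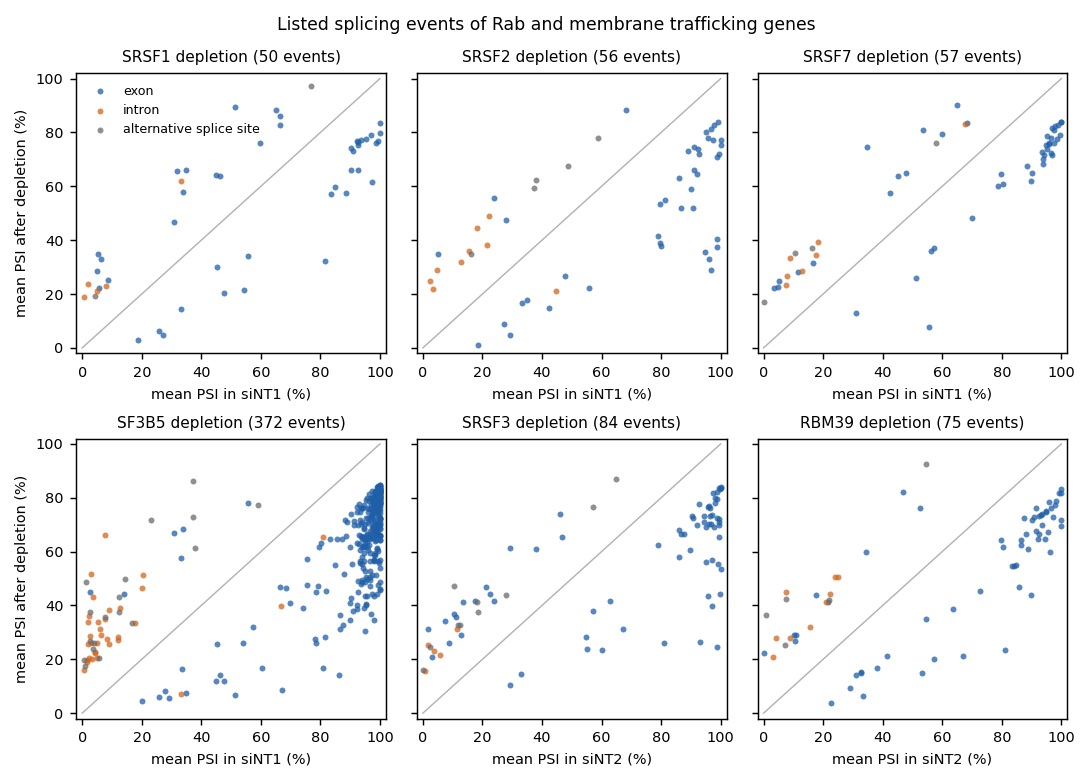
Each point is a listed event of a trafficking gene, with the authors' mean PSI of the non-targeting group on the x axis and of the depleted group on the y axis (both in percent, 2 samples a group, no error available), coloured by event type; the line marks equal values. After SF3B5 depletion most points are exons near full inclusion that fall below the line, while exons of intermediate control PSI lie both above and below it in each panel.

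The size of the changes was set beside that of all listed events. Changes of at least 25 points were 189 of the 372 events after SF3B5 depletion (50.8%, against 51.3% of all listed events), 33 of 84 after SRSF3 (39.3% against 42.5%), 22 of 56 after SRSF2 (39.3% against 37.9%), 28 of 75 after RBM39 (37.3% against 35.6%), 14 of 50 after SRSF1 (28.0% against 34.2%), 8 of 57 after SRSF7 (14% against 27.2%) and 0 of 5 after MLN8237 (against 12.7%). The trafficking share was lower than the background for SRSF7 and SRSF1 by more than for the other depletions. The MLN8237 share rests on only 5 events and was not ranked. The median change of the trafficking exons was -25.2 points for SF3B5, -23.8 for SRSF2, -20.1 for SRSF3, -20.0 for RBM39, -18.5 for SRSF7 and -16.4 for SRSF1. Over all listed exons it was -26.2, -19.9, -21.4, -21.4, -19.3 and -17.4 points in the same order.

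MLN8237 listed 5 events, and none was a Rab gene. In DENND3, an exchange factor for RAB12, an exon of 122 bases had a PSI of 54.9% in DMSO and 75.3% after MLN8237, and one of 112 bases had 54.3% and 73.4%. The exon of 112 bases was listed as higher after SRSF1 depletion too (66.4% to 86.0%) and as lower after SRSF3 depletion (67.3% to 31.2%). In VPS13B, a lipid transfer protein of the Golgi, an exon of 64 bases went from 97.6% to 79.3%, and after RBM39 depletion from 91.5% to 67.5%. An alternative 3′ splice site of VAMP1, a vesicle SNARE, was used at 60.1% in DMSO and 78.8% after MLN8237, and at 54.4% and 92.4% around RBM39 depletion. An alternative 5′ splice site of the antisense gene STX18-AS1 had 35.7% and 51.3%. These 5 events were all that the inhibitor table held for the 169 genes.

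The groups of genes are described next by their exon rows pooled over the tables, an exon counting once for each table that lists it. Over all genes, 18448 of 21103 such rows (87.4%) were lower, and over the trafficking genes 519 of 585 (88.7%). SF3B5 depletion gave 54.9% of the trafficking exon rows and 46.3% of all exon rows, so the pooled shares lean on that table. By group the share ran from 74.1% in the exocyst to 100% in COG, and no difference between groups was tested.

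Rab GTPases held 42 distinct events in 17 genes. Of their 42 exon rows 40 were lower, 30 of them after SF3B5 depletion and none after SRSF2 depletion. In RAB14, which acts between endosomes and the Golgi, an exon of 59 bases that is partly coding had 97.2% in siNT2 and 39.97% after SRSF3 depletion, and 96.5% in siNT1 and 52.8% after SF3B5 depletion. An exon of 72 bases in RAB40B, a Rab that recruits a ubiquitin ligase, had 95.3% in siNT1, 77.5% after SRSF1 and 40.4% after SF3B5 depletion. RAB8B, which acts in transport to the plasma membrane, had 4 exons listed after SF3B5 depletion, with control values of 94.0% to 100% and treated values of 46.1% to 77.6%. An exon of 89 bases in RAB9A, a Rab of late endosomes, was higher after SRSF1 depletion (66.3% to 82.9%) and lower after SF3B5 (66.3% to 46.8%) and RBM39 depletion (63.5% to 38.7%).

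Rab effectors and regulators whose symbols begin with RAB held 25 events in 11 genes, and 26 of their 31 exon rows were lower. RAB11FIP3, an effector of RAB11 in recycling endosomes and cytokinesis, had the exon of 135 bases shown above at 55.7% in siNT1. It was 34.1% after SRSF1, 22.1% after SRSF2 and 7.81% after SRSF7 depletion, but 78.0% after SF3B5 depletion. Skipping was thus listed after each of these SR protein depletions and inclusion after SF3B5 depletion. The exon of 374 bases in RAB11FIP5, another RAB11 effector, had 54.4% in siNT1 and 21.4% after SRSF1 depletion, and 60.3% in siNT2 and 23.5% after SRSF3 depletion. In RABEP2, a RAB5 effector, an exon of 213 bases had 94.9% in siNT1 and 35.7% after SRSF2 depletion. RABEP1, the related rabaptin, had an exon of 99 bases with 93.9% in siNT1 and 68.3% after SRSF7 depletion. An exon of 178 bases in RABGAP1L, a Rab GTPase-activating protein, was at 5.47% in siNT1 and 34.8% after SRSF1 depletion.

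DENN domain exchange factors held 48 events in 10 genes, with 50 of 58 exon rows lower. DENND5A, an exchange factor for RAB39, had the largest difference in points of the group, in an exon of 124 bases with 80.9% in siNT1 and 16.9% after SF3B5 depletion. DENND1A, which activates RAB35, had 9 distinct events, and all 9 were listed after SF3B5 depletion. Its exon of 208 bases was listed both ways, at 31% in siNT1, 46.9% after SRSF1, 12.9% after SRSF7 and 67.0% after SF3B5 depletion, and at 29.1% in siNT2 and 10.3% after SRSF3 depletion. An exon of 70 bases in DENND1B had 65.1% in siNT1 and 90.4% after SRSF7 depletion.

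DENND4B, an exchange factor for RAB10, had the most distinct events of all 169 genes, 14, of which 7 were introns. After SRSF2 depletion 6 of its introns had a higher PSI. The intron of 199 bases (chr1:153942357-153942555) had 22.1% in siNT1 and 48.9% after SRSF2 depletion, and the intron of 252 bases (chr1:153942626-153942877) had 15.6% and 36.1%. Between them lies the exon of 70 bases (chr1:153942556-153942625), which had 80.1% in siNT1 and 37.8% after the same depletion. The exon was thus less included while both flanking introns were more retained. The intron of 297 bases (chr1:153940607-153940903) had 18.2% and 44.7%.

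TBC domain proteins were the largest group, with 84 events in 25 genes, and 97 of 104 exon rows were lower. RBM39 depletion listed 15 of these lower exons and no higher one. TBC1D10B, a Rab GTPase-activating protein, had 3 coding exons close together, of 100, 108 and 107 bases (chr16:30365495-30365594, chr16:30365105-30365212 and chr16:30364900-30365006, minus strand), that were each listed as lower after SRSF1, SRSF2, SF3B5 and RBM39 depletion. The exon of 100 bases had 91.1% in siNT1, 73.3% after SRSF1, 66.2% after SRSF2 and 37.8% after SF3B5 depletion, and 92.6% in siNT2 and 66.4% after RBM39 depletion. The exon of 108 bases had 92.7% in siNT1 with 76.5%, 72.0% and 45.1% after the same depletions, and the exon of 107 bases had 92.2% with 76.8%, 64.7% and 40.2%. The values of all 3 exons thus had the same order in these depletions.

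In TBC1D23, a golgin-binding protein that captures endosome-derived vesicles at the Golgi, the exon of 45 bases shown above had 90.4% in siNT1, 66.1% after SRSF1 and 42.7% after SF3B5 depletion. Against 89.7% in siNT2, it had 60.4% after SRSF3 and 44.0% after RBM39 depletion. TBC1D7, a subunit of the TSC complex, had an exon of 81 bases (chr6:13325094-13325174) with 67.0% in siNT2 and 21.2% after RBM39 depletion. TBC1D5, which acts on RAB7 with retromer, had an exon of 118 bases at 31.7% in siNT1 and 65.6% after SRSF1 depletion, and at 29.1% in siNT2 and 61.5% after SRSF3 depletion. TBC1D17 had an exon of 112 bases with 99.7% in siNT2 and 44.3% after SRSF3 depletion. The exon of 66 bases in TBC1D3I had 86.1% in siNT1 and 14.2% after SF3B5 depletion, a value that is uncertain because reads may be shared among near-identical copies.

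**Figure D2:**
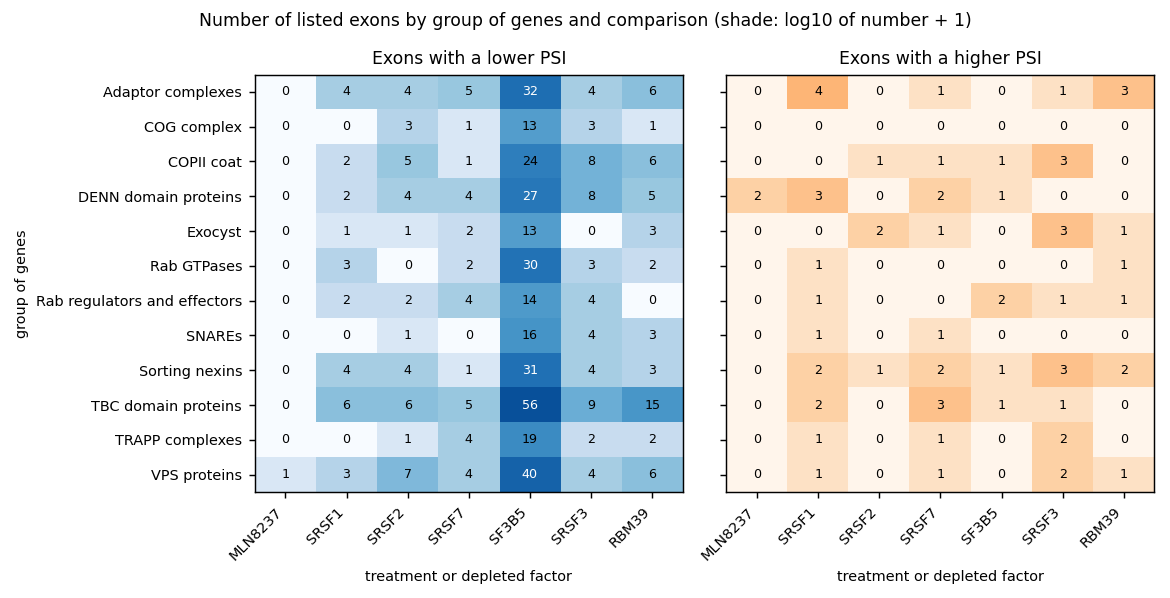
Each cell gives the number of exons listed for a group of genes in a comparison, with lower PSI on the left and higher PSI on the right; the shade follows the log10 of the number plus 1. SF3B5 depletion gives the highest number of lower exons in all 12 groups, from 13 in COG and exocyst to 56 in TBC domain proteins, and higher exons number at most 4 in a cell.

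The genes named after SEC13, SEC16, SEC22, SEC23, SEC24 and SEC31 held 42 events in 12 genes, with 46 of 52 exon rows lower. They act in COPII transport, and SEC22B and SEC22C, counted here and not among the SNAREs, belong to a SNARE family and not to the coat. SEC16A, the scaffold of endoplasmic reticulum exit sites, had 12 distinct events. Its neighbouring exons of 62 and 139 bases, shown above, had 98.8% and 96.8% in siNT1, 37.4% and 28.9% after SRSF2 depletion, and 51.2% and 59.4% after SF3B5 depletion. SEC31B, a subunit of the outer coat, had the exon of 146 bases shown above at 81.4% in siNT1, 32.1% after SRSF1, 54.9% after SRSF2 and 28.4% after SF3B5 depletion. Against 85.9% in siNT2 it had 46.9% after RBM39 depletion. A second SEC31B exon, of 143 bases, had 81.0% in siNT2 and 23.5% after RBM39 depletion.

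Its paralogue SEC31A had an exon of 39 bases listed both ways. It had 27.8% in siNT1, 47.5% after SRSF2 and 8.38% after SF3B5 depletion, and 38.1% in siNT2, 60.9% after SRSF3 and 16.8% after RBM39 depletion. SRSF3 depletion also listed a SEC31A exon of 157 bases, with 93.0% and 26.6%, and one of 78 bases, with 45.9% and 74.1%. A 3′ splice site of SEC13, the partner of SEC31 in the outer coat, had 10.5% in siNT2 and 47.1% after SRSF3 depletion.

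SEC24 proteins bind cargo in the inner coat. SEC24C had 13 distinct events, of which 11 were exons listed as lower after SF3B5 depletion. Their control values ran from 87.5% to 96.4% and their treated values from 32.9% to 72.4%. The lowest treated value belonged to the exon of 192 bases. SEC24B had an exon of 105 bases at 33.2% in siNT1, 14.6% after SRSF1, 16.8% after SRSF2 and 57.7% after SF3B5 depletion, and at 41.3% in siNT2 and 21.3% after RBM39 depletion. As in RAB11FIP3, SF3B5 depletion was the only listed comparison in which this exon was more included.

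The shares of lower exon rows among tethers ran from 74.1% in the exocyst, below the 87.4% of all listed exon rows, through 87.5% in TRAPP to 100% in COG. TRAPP complexes, which activate Rab proteins at the Golgi, held 27 events in 12 genes, with 28 of 32 exon rows lower. The largest difference was in TRAPPC4, a core subunit, whose exon of 49 bases had 95.7% in siNT1 and 43.6% after SF3B5 depletion. In TRAPPC6B, another core subunit, an exon of 70 bases was at 1.73% in siNT2 and 31.2% after SRSF3 depletion. The COG complex held 18 events in 5 genes, and all 21 exon rows were lower. Its largest difference was in the COG2 exon of 66 bases, with 98.0% in siNT1 and 43.5% after SF3B5 depletion.

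The exocyst, which tethers vesicles at the plasma membrane, held 19 events in 7 genes, and 20 of 27 exon rows were lower. EXOC3 had an exon of 101 bases with 95.1% in siNT1 and 40.3% after SF3B5 depletion. The EXOC1 exon of 45 bases shown above had 47.7% in siNT1, 20.5% after SRSF1, 26.8% after SRSF2, 64.9% after SRSF7 and 11.9% after SF3B5 depletion. SRSF7 depletion was thus the only listed comparison in which it was higher. The EXOC7 exon of 93 bases had 23.8% in siNT1 and 55.5% after SRSF2 depletion, and 22.6% in siNT2, 44.2% after SRSF3 and 3.74% after RBM39 depletion. The EXOC6B microexon of 12 bases had 5.02% in siNT1 and 35.0% after SRSF2 depletion, and 0.00% in siNT2 and 22.4% after RBM39 depletion.

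Sorting nexins, which bind phosphoinositides on endosomes, held 42 events in 14 genes, with 47 of 58 exon rows lower and 11 higher, the highest number of higher rows in a group. SNX14, a sorting nexin of endoplasmic reticulum contacts with lipid droplets, held the exon of 27 bases that was listed in all 6 depletion tables, more than any other trafficking event. It had 34.9% in siNT1, 66.1% after SRSF1, 17.9% after SRSF2, 74.6% after SRSF7 and 7.58% after SF3B5 depletion. Against 46.8% in siNT2 it had 65.5% after SRSF3 and 82.1% after RBM39 depletion. The exon was thus higher after 4 depletions and lower after SRSF2 and SF3B5 depletion.

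A second SNX14 exon, of 44 bases (chr6:85567534-85567577), had 68.3% in siNT1, 88.2% after SRSF2, 83.6% after SRSF7 and 46.4% after SF3B5 depletion, and 79.9% in siNT2 and 64.4% after RBM39 depletion. After SRSF2 and RBM39 depletion the 2 SNX14 exons were listed in opposite directions, and after SRSF7 and SF3B5 depletion in the same one. In SNX24 an exon of 65 bases (chr5:123001940-123002004) had 96.0% in siNT1 and 32.8% after SRSF2 depletion. SNX25 had an exon of 165 bases with 89.7% in siNT1 and 61.8% after SRSF7 depletion.

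Genes with a VPS symbol, most of which act at endosomes, lysosomes or the Golgi, held 71 events in 22 genes, with 65 of 70 exon rows lower. These counts include the chromatin factor VPS72 with 1 event and the antisense RNA gene VPS9D1-AS1 with 3. The largest difference among all trafficking events was in VPS50, a subunit of the EARP tether of recycling endosomes, whose coding exon of 177 bases (chr7:93305828-93306004) had 98.8% in siNT2 and 24.4% after SRSF3 depletion. In VPS33B, which acts with late endosomal tethers, an exon of 74 bases had 97.9% in siNT1 and 34.8% after SF3B5 depletion. A 3′ splice site of VPS54, a subunit of the GARP tether, had 0.95% in siNT2 and 36.6% after RBM39 depletion.

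Genes with a syntaxin or VAMP symbol held 31 events in 15 genes, the antisense gene STX18-AS1 with 1 event included, and 24 of 26 exon rows were lower. STX2, a syntaxin of the plasma membrane, had an exon of 109 bases (chr12:130806982-130807090) with 94.9% in siNT1 and 30.3% after SF3B5 depletion. Its exon of 126 bases (chr12:130795995-130796120, partly coding) was listed both ways. It had 53.6% in siNT1 and 81.0% after SRSF7 depletion, and 57.3% in siNT2, 38.1% after SRSF3 and 20% after RBM39 depletion. The exon lies inside a listed STX2 intron of 6547 bases (chr12:130791978-130798524). That intron had 8.76% in siNT1 and 33.5% after SRSF7 depletion, and 7.41% in siNT2 and 45% after RBM39 depletion. Its PSI was thus higher in both comparisons, while the exon within it was higher in one and lower in the other.

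Adaptor subunits held 61 events in 19 genes, with 55 of 64 exon rows lower. The largest difference was in AP4B1, a subunit of the AP-4 adaptor of the Golgi, whose exon of 104 bases had 100% in siNT1 and 48.8% after SF3B5 depletion. The AP-1 adaptor works between the Golgi and endosomes, and its gamma subunits are AP1G1 and AP1G2. AP1G2 had 13 distinct events. Its exon of 86 bases had 51.3% in siNT1, 89.3% after SRSF1, 25.9% after SRSF7 and 6.90% after SF3B5 depletion, and 53.1% in siNT2 and 14.8% after RBM39 depletion. Its exon of 92 bases had 88.5% in siNT1 and 57.5% after SRSF1 depletion. An AP1G2 intron of 691 bases (chr14:23566420-23567110) had 33.3% in siNT1, 62.1% after SRSF1 and 7.10% after SF3B5 depletion, the same directions as the exon of 86 bases.

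Of the adaptor microexons, those of AP1G1 and AP2M1 were listed both ways, while the AP1B1 exon of 9 bases was listed only as lower, from 29.3% in siNT1 to 4.88% after SRSF2 and 5.51% after SF3B5 depletion. AP1B1, a beta subunit of AP-1, was named after its values were seen. The AP1G1 microexon of 9 bases had 46.4% in siNT1, 63.9% after SRSF1 and 14.1% after SF3B5 depletion, and 52.6% in siNT2 and 76.2% after RBM39 depletion. In AP2M1, the mu subunit of the endocytic AP-2 adaptor, an exon of 6 bases had 45.1% in siNT1, 64.0% after SRSF1, 64.0% after SRSF7 and 11.9% after SF3B5 depletion. AP3M2, the mu subunit of an AP-3 adaptor, had an exon of 345 bases listed as lower in 4 tables, with 97.4% in siNT1, 61.6% after SRSF1, 76% after SRSF7 and 69.1% after SF3B5 depletion, and 93.2% in siNT2 and 73.4% after RBM39 depletion. AP5Z1, the zeta subunit of the late endosomal AP-5 adaptor, had 10 distinct events, 5 of them introns. Its 3′ splice site of 353 bases had 23.2% in siNT1 and 71.7% after SF3B5 depletion.

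Trafficking events recurred about as often as those of all genes, with 132 of 510 (25.9%) in 2 or more tables, against 5021 of 19275 (26.0%). Of the 510 trafficking events, 378 were listed in 1 table, 91 in 2, 27 in 3, 13 in 4 and 1 in 6. Of the 132 listed in 2 or more tables, 19 (14.4%) were listed in opposite directions, against 1010 of 5021 (20.1%) over all genes. These totals include alternative splice sites, listed only as higher, and exons near full inclusion, which can be listed only as lower. Such exons were more frequent among trafficking exons for each depletion, so the shares were not compared at like control PSI. Depletions of SRSF1, SRSF2, SRSF7 and SF3B5 share their control samples, as do those of SRSF3 and RBM39, so that these directions are not independent between tables.

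**Figure D3:**
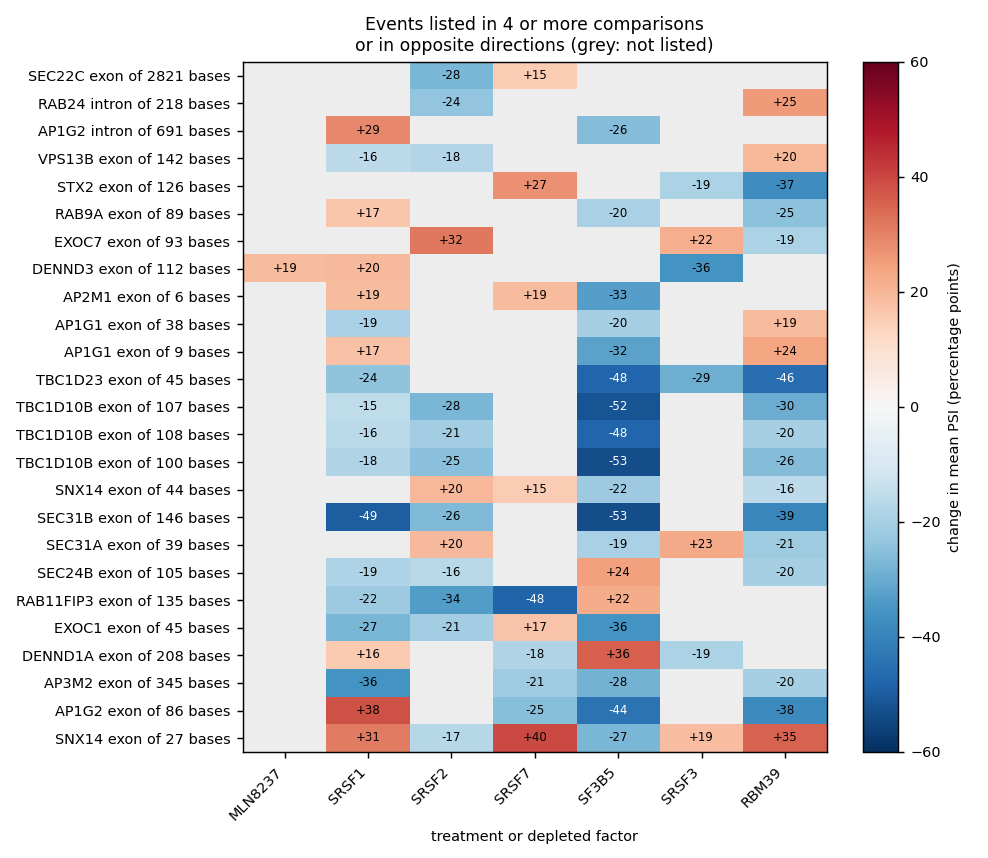
Each row is an event of a trafficking gene listed in 4 or more comparisons or in opposite directions, each column a comparison, and the colour and number give the treated minus control mean PSI in percentage points; grey cells are not listed. The SNX14 exon of 27 bases has a value in all 6 depletions, and the TBC1D10B, TBC1D23, SEC31B and AP3M2 exons are lower wherever they are listed.

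Introns were listed mostly as more retained. The 57 distinct introns lay in 34 genes and gave 68 rows, of which 64 (94.1%) were higher and 4 lower, against 84.5% higher of all listed intron rows. Higher introns were 5 of 5 for SRSF1, 8 of 9 for SRSF2, 7 of 7 for SRSF7, 30 of 33 for SF3B5, 5 of 5 for SRSF3 and 9 of 9 for RBM39, against 66.8%, 79.4%, 71.0%, 93.3%, 54.7% and 89.5% of all listed introns in that order. Introns with a control PSI below 15 can be listed only as higher. Trafficking introns had a lower median control PSI than all listed introns for each depletion. The median was 4.81% against 20.4% for SRSF1, 12.8% against 20.7% for SRSF7 and 3.84% against 21.8% for SRSF3. The medians were closer for SRSF2, SF3B5 and RBM39. The shares were thus not compared at like control PSI, and their difference was not tested. The largest difference was in RAB24, a Rab linked to autophagy, whose intron of 140 bases (chr5:177301988-177302127) had 7.68% in siNT1 and 66.2% after SF3B5 depletion.

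TBC1D24, a TBC protein of synaptic vesicles mutated in epilepsy, had 4 introns listed as higher after SF3B5 depletion. The intron of 313 bases (chr16:2500491-2500803) had 2.94% in siNT1 and 51.5% after depletion, that of 337 bases 3.71% and 43.2%, that of 960 bases 9.02% and 38.3%, and that of 414 bases 7.66% and 35.0%. The exons of 64 and 96 bases that lie between these introns were listed as lower after SF3B5 depletion, from 95.7% to 49.8% and from 100% to 72.5%. An intron of 133 bases in TBC1D25, a Rab GTPase-activating protein, had 2.42% in siNT1 and 35.9% after SF3B5 depletion. An intron of 772 bases in STX1A, a syntaxin of synaptic exocytosis, had 2.09% and 33.9%. The 4 lower rows were the AP1G2 intron of 691 bases, a RAB29 intron of 186 bases (66.9% to 39.8%) and a VPS9D1-AS1 intron of 439 bases (80.9% to 65.6%) after SF3B5 depletion, and a RAB24 intron of 218 bases after SRSF2 depletion. Some of these were named after their values were seen.

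Exon length set the trafficking exons little apart. Of the 414 distinct exons, 169 (40.8%) had a length that is a multiple of 3, so that skipping them keeps the reading frame when they are coding, against 6047 of 14593 (41.4%) over all listed exons. The exact binomial 95% interval of the trafficking share was 36.0% to 45.7%. The 17 exons listed both ways included 9 such lengths (52.9%), against 55.1% of the 915 exons of all genes listed both ways. Exons listed only as lower numbered 368, of which 40.2% had such lengths, against 40.01% of 12488 over all genes. Microexons were 9 of the 414 exons (2.17%), against 235 of 14593 (1.61%).

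The control groups set a limit on small differences. For the 81 trafficking events with a value in siNT1 and siNT2, the median absolute difference between these controls was 1.84 points, and the largest was 19.5. The difference exceeded 15 points for 4 of the 81 events (4.94%). Over all genes the median was 2.72 points, and 103 of 3392 events (3.04%) exceeded 15 points. The 4 events were named after their values were seen. A RAB24 intron of 218 bases (chr5:177302179-177302396) had 44.6% in siNT1 and 25.1% in siNT2. It was listed as lower after SRSF2 depletion, at 21.0%, and as higher after RBM39 depletion, at 50.4%, so each treated value lay near the value of the other control group. An AP1G1 exon of 38 bases, untranslated or non-coding, had 25.8% in siNT1 and 10.2% in siNT2. It was listed as lower after SRSF1 depletion, at 6.41%, and as higher after RBM39 depletion, at 29.1%. The remaining events were the AP3M1 exon of 122 bases, with 45.2% and 62.8%, and the AP1G2 splice site of 62 bases, with 37.2% and 21.8%.

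For the SNX14 exon of 27 bases the controls differed by 11.9 points, and for the SEC31A exon of 39 bases by 10.3 points. No change under 15 points is listed, so these differences lie below every listed change by construction. The control groups belong to different sets, and what made them differ was not tested.

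**Figure D4:**
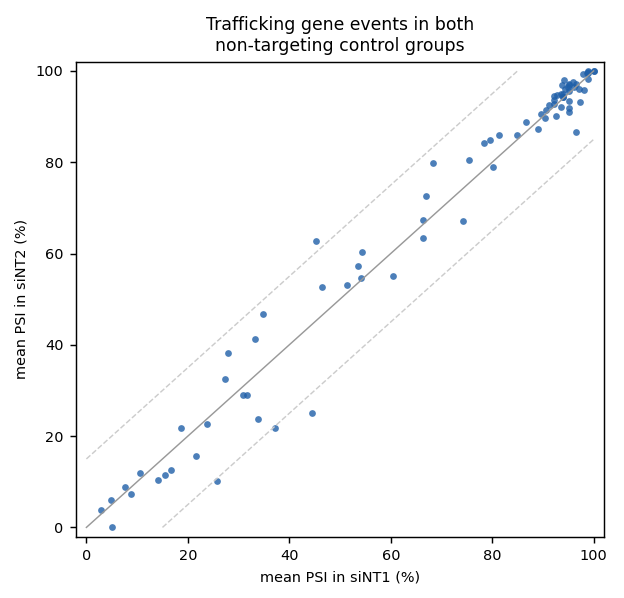
Each point is a trafficking event listed against both non-targeting groups, with its mean PSI in siNT1 on the x axis and in siNT2 on the y axis (percent, 2 samples a group). The solid line marks equal values and the dashed lines a difference of 15 points, which 4 of the 81 events exceed.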

How the data were processed

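Stranded libraries of polyadenylated RNA were sequenced from 20 HEK293T samples in 10 groups of 2, per the labels' protocols. Reads were processed with cutadapt and Bowtie on hg38, per the submitters' processing notes, and the deposited table names point to VAST-TOOLS. The authors deposited mean PSI as percent values for each group, per the file headers. The authors deposited the PSI difference too, used here as a score in percentage points. The listing rule is not given in the sources used here, nor is the read depth.

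Genes were chosen by symbol pattern, and members and gene lists were chosen with earlier results of these data known. No test was made: only group means were used, and 2 against 2 samples cannot give an exact permutation p below 0.333. Nothing in the labels says that the 2 samples were separate cultures. Counts were set beside those of all listed events, with exact Clopper-Pearson 95% intervals for counting error only. Exons were placed in GENCODE 29 by gene and unique length. All 169 trafficking symbols and 6912 of 7112 symbols matched that annotation. Named events were every MLN8237 event, the 4 lowest and 4 highest per depletion, the largest per gene group, those in 4 or more tables, the 10 widest opposite ones, the 5 genes with most events and the 6 largest introns. The scripts, checked on simulated tables, used Python 3.11.15, pandas 2.3.3 and scipy 1.17.1.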

Additional observations from a re-analysis of the deposited data

How the results depend on the processing

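No paired analysis was possible because the files hold group means, which carry no replicate numbers. For the same reason no replicate could be left out, and the depth behind an event, which limits the precision of every PSI, is unknown. Of 113 recomputed values over 41 results, 93 stayed within the limits used, 17 moved and 3 reversed. The limits were a ratio of 1.5 for counts and, for shares and medians, the 95% interval of the reported value. These intervals are wide for few events and then show no stability. With 1 event per gene and class, the MLN8237 median exon change was 1.11 points against 19.1 and its share of lower exons 50% against 33.3%, within limits set by 3 exons. That median is the midpoint of 2 exons listed in opposite directions. Keeping only changes of at least 25 points left 0 events for MLN8237, 14 for SRSF1, 22 for SRSF2, 8 for SRSF7, 189 for SF3B5, 33 for SRSF3 and 28 for RBM39. In that setting 100% of the SRSF2 introns were higher, but only 2 introns remained. Without alternative splice sites, 3 MLN8237 events remained in the count. With 1 event per gene and class, SF3B5 depletion had 167 events, and with 1 per gene its median exon change was -32.4 points. With control PSI limited to 20 to 80, the share of lower exons was 0% for MLN8237, 38.9% for SRSF1 (reversed against 62.8%), 76.9% for SRSF2, 50% for SRSF7, 86.7% for SF3B5 and 56.2% for SRSF3. The median change in that range was 16.5 points for SRSF1 and 0.08 points for SRSF7, both reversed, and -17.4 points for SRSF3. No change under 15 points is listed, so the SRSF7 median is not the change of any exon. In that range 8 of its 16 exons were lower, and the median lies between these and the higher ones. That range leaves out by construction the exons that could only be listed as lower. Dropping VPS72 and genes with near-identical copies, the antisense and fused symbols (chosen after seeing the data), or microexons moved no result past these limits. Updating older symbols changed no symbol of these genes. Its 7 values, counted among the 93, thus could not move and show no stability.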

Other observations

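Trafficking genes whose symbols fall outside the pattern were described for a list of 149 genes of COPI and ARF, clathrin, SNARE machinery, ESCRT, and Rab accessory and tethering proteins, of which 101 were listed with 342 distinct events. In this list 320 exon rows were lower and 40 higher, and 48 of 53 intron rows were higher. These shares were 88.9% lower exon rows and 90.6% higher intron rows, against 87.4% and 84.5% over all listed rows, so the exon share was near the background. The control PSI of these rows, which limits their direction, was not compared. The 14 listed ESCRT genes of this list, which sort ubiquitinated cargo into multivesicular bodies, had 22 lower exon rows and 0 higher ones. Of these rows 15 came from SF3B5 depletion, where 97.9% of all listed exons were lower. ESCRT subunits with a VPS symbol, such as VPS28 and VPS36, fall under the pattern and were not counted here. In PDCD6IP, an ESCRT-associated protein also known as ALIX, an exon of 188 bases had 95.9% in siNT2 and 21.9% after SRSF3 depletion. NUMB, an endocytic adaptor of Notch signalling, had an exon of 285 bases with 96.1% in siNT2 and 16.2% after SRSF3 depletion. ARFGAP2, which acts on ARF1 in COPI coats, had 5 exons among the lowest after SF3B5 depletion, with control values of 86.9% to 94.6% and treated values of 9.3% to 26.4%. STXBP5, a syntaxin-binding protein also called tomosyn, had an exon of 60 bases with 24.3% in siNT1 and 82.1% after SRSF2 depletion. These values are the authors' group means, with no replicate error and no test.

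After SRSF2 depletion, the 149 genes had 14 exons lower and 13 higher, while the genes matched by the pattern had 38 lower and 4 higher, against 73.5% lower of all listed exons. Of the pattern exons listed after SRSF2 depletion, 52.4% had a control PSI of at least 90 and could be listed only as lower. That share was 35.0% over all listed exons and was not computed for the 149 genes. The difference in direction was not tested.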
